A study of Arabidopsis thaliana with 12 samples.

Results

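Flowering time in Arabidopsis is set by a small group of repressors and activators, and the levels of 10 of them were followed in plantlets held at 0, 4, 10 and 22 °C. The group was defined by locus and not by a rule on measured values, but earlier results of these data were known when it was chosen. It held FLC (AT5G10140) and its relatives FLM (AT1G77080), MAF2 (AT5G65050), MAF3 (AT5G65060), MAF4 (AT5G65070) and MAF5 (AT5G65080), the repressor SVP (AT2G22540), and the floral integrators FT (AT1G65480), TSF (AT4G20370) and SOC1 (AT2G45660). These are 10 of 33560 annotated loci in the deposited tables and 23 of 41623 annotated transcripts. All 10 passed the filter on low counts and were tested.

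FLC and its relatives encode MADS-box transcription factors that delay flowering, and SVP is a MADS-box partner that binds DNA together with FLC or FLM. They hold down FT and SOC1, and FT and its close relative TSF encode small mobile proteins that travel from the leaf veins to the shoot tip and promote flowering there. SOC1 is a MADS-box activator at the shoot tip that collects signals from the photoperiod, ageing, gibberellin and temperature pathways. Vernalization, a winter-long cold, silences FLC through VIN3 and Polycomb proteins, and cold also induces antisense RNA at FLC known as COOLAIR. The ecotype used, Columbia-0, carries an inactive allele of FRI, the main activator of FLC, so FLC is known to be low in it.

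RNA came from whole plantlets of ecotype Columbia 0, untransformed, grown for 14 days on agar with 0.2x MS medium and sucrose at 22 °C under 16 h of light and 8 h of darkness, from seed that had been kept at 4 °C before germination. Plantlets were then moved to 0, 4 or 10 °C, or stayed at 22 °C as controls, with 3 libraries per temperature and 10 plantlets pooled in each. The labels of the samples give 24 h of cold for all 3 cold temperatures, while the text for the whole series lists 24, 48 and 72 h in the order of 0, 4 and 10 °C, so duration and temperature cannot be told apart if that text holds. None of the sources used here gives the hour of harvest.

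Total estimated counts ran between 32870040 and 41683299 per library. CPM is a count scaled to the size of its library, and 1 count in the library with the fewest annotated counts was worth 0.0346 CPM of annotated counts before further scaling. Levels are given as CPM scaled by TMM factors, which correct for differences in library composition and lay between 0.792 and 1.19. Markers of green tissue and of roots were detected in every library. The 6 root markers summed to 41.5 to 44.2 CPM at 0 °C, 33.1 to 38.1 CPM at 4 °C, 85.4 to 90.2 CPM at 10 °C and 62.4 to 68.7 CPM at 22 °C. Root markers moved in both directions. NRT2.1 averaged 38.7 CPM at 10 °C and 8.17 CPM at 22 °C, while CASP1 averaged 18.8 and 29.9 CPM. With edgeR at an adjusted p under 0.05, 3 of the 6 were higher at 10 °C than at 22 °C, 2 lower and 1 neither. Over all genes tested 32.4% were higher and 32.3% lower in that comparison. The 4 green tissue markers summed to 39835 to 43407 CPM at 0 °C, 30390 to 32825 CPM at 4 °C, 26363 to 27646 CPM at 10 °C and 41187 to 44096 CPM at 22 °C. By the same test 3 of the 4 were lower at 10 °C than at 22 °C, beside 32.3% of all genes. The other, RBCS1A, averaged 14714 and 14328 CPM, while LHCB1.3 averaged 10747 and 24613 CPM. The 3 seed markers summed to 2.1 to 2.3 CPM at 0 °C, 0.635 to 0.902 CPM at 4 °C, 1.88 to 2.77 CPM at 10 °C and 0.342 to 0.595 CPM at 22 °C. These marker sums moved with temperature, and the part of tissue makeup in the results below was not tested. In whole plantlets, fewer cells of a type and less RNA per cell cannot be told apart. The 5 floral organ markers summed to between 4.5 and 5.41 CPM in all libraries.

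A large part of the transcriptome changed in each comparison, which is the background for every count below. Of 21293 genes tested with edgeR, 74.3% were called at an adjusted p under 0.05 at 0 °C against 22 °C, 73.9% at 4 °C and 64.6% at 10 °C. Of the 10 flowering genes, 6, 6 and 7 were called in these comparisons, so a call by itself does not set them apart. The 3 comparisons share the control libraries. Their median log2 fold change was 0.66 at 0 °C, 0.33 at 4 °C and 0.22 at 10 °C, beside -0.07, -0.03 and -0.01 over all genes tested. Among the 4 temperatures 9 of them differed, and MAF5 did not pass that test (adjusted p = 0.314), beside 88.5% of all genes.

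The sequences that tell the transcripts apart are shown first because at FLC the transcripts decide the reading of the gene's total. FLC lies on the minus strand of chromosome 5 at 3173382-3179448, in TAIR10.1 coordinates from RefSeq. Its deposited transcripts AT5G10140.1, AT5G10140.2 and AT5G10140.3 share their first exons and differ in their last coding stretch, printed in capitals, while AT5G10140.4 has the last coding stretch of AT5G10140.1 and skips a shared exon. The capitals stand after the last 10 bases of a shared exon in lower case. The stretch of AT5G10140.1 is the start of its last exon (chr5:3173811-3173825), the stretch of AT5G10140.2 is the start of a last exon that begins upstream of it (chr5:3173877-3173891), and AT5G10140.3 has an exon of its own (chr5:3174036-3174107).
FLC AT5G10140.1: ggctagccagATGGAGAATAATCAT
FLC AT5G10140.2: ggctagccagATATTCCTTGGATAG
FLC AT5G10140.3: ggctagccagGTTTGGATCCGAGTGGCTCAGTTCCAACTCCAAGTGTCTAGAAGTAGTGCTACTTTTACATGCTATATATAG

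FLM, on the plus strand of chromosome 1 at 28955483-28960234, is known for a pair of alternative exons that give the proteins FLM-beta and FLM-delta. AT1G77080.4 carries the first of the alternative exons (chr1:28958334-28958391) and AT1G77080.2 the second (chr1:28958456-28958501), shown in capitals between 10 bases of the shared exons on either side.
FLM AT1G77080.4: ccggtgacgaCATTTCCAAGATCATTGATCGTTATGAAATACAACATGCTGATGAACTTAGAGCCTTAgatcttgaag
FLM AT1G77080.2: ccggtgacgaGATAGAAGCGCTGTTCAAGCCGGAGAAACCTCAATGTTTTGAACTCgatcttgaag

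Among the repressors, FLC was higher at 0 °C alone of the cold temperatures. It had 5.83, 6.38 and 6.38 CPM at 0 °C, against 1.69, 1.87 and 2.12 CPM at 22 °C, and the groups did not overlap. The libraries at 4 °C had 2.46, 1.84 and 2.22 CPM and those at 10 °C had 1.76, 2.01 and 1.47 CPM, and both sets overlapped the controls. The log2 fold change over 22 °C was 1.71 ± 0.16 at 0 °C (SE; adjusted p = 6.62e-07 with edgeR), 0.20 ± 0.16 at 4 °C (adjusted p = 0.269) and -0.12 ± 0.16 at 10 °C (adjusted p = 0.551). FLC at 0 °C was also above its level at 4 °C, by 1.51 ± 0.16 on the log2 scale (adjusted p = 3.86e-06), and above that at 10 °C, by 1.83 ± 0.16 (adjusted p = 3.99e-07). By the estimated transcript counts below, this higher total was assigned to transcripts other than AT5G10140.1. Antisense reads over shared bases could not be told apart from FLC reads, as described below.

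**Figure D1:**
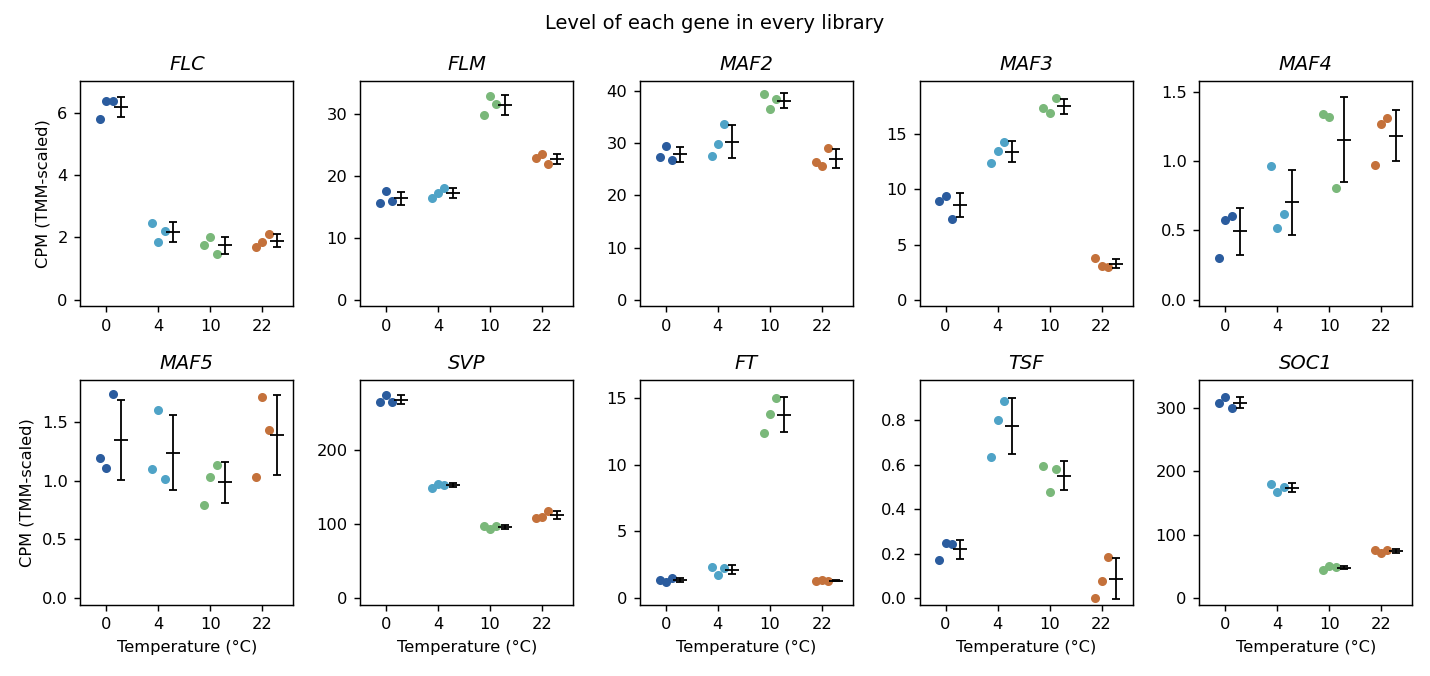
Level of each of the 10 genes in CPM (TMM-scaled, y axis) at 0, 4, 10 and 22 °C (x axis), with 1 point per library and the mean ± SD of 3 libraries beside the points. FLC, SVP and SOC1 were highest at 0 °C, and FT stood at 12.4 to 15 CPM at 10 °C and below 3 CPM at the other temperatures.

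MAF3, a relative of FLC in the MAF2 to MAF5 array on chromosome 5, was the clade member that rose at every cold temperature. Its libraries had 8.94, 9.42 and 7.35 CPM at 0 °C, 12.4, 13.5 and 14.3 CPM at 4 °C, 17.4, 16.9 and 18.3 CPM at 10 °C, and 3.73, 3.09 and 2.96 CPM at 22 °C. No group overlapped another, and the level was highest at 10 °C, the mildest cold. The log2 fold change over 22 °C was 1.40 ± 0.12 at 0 °C (adjusted p = 2.43e-07), 2.04 ± 0.11 at 4 °C (adjusted p = 4.37e-09) and 2.43 ± 0.11 at 10 °C (adjusted p = 1.14e-09). Neighbouring cold temperatures differed too, by -0.65 ± 0.11 for 0 over 4 °C (adjusted p = 0.000202) and -0.39 ± 0.1 for 4 over 10 °C (adjusted p = 0.00525).

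FLM, whose splicing is known to respond to ambient temperature, changed in opposite directions within the cold range. It had 15.6, 17.5 and 16 CPM at 0 °C, 16.4, 17.2 and 18.1 CPM at 4 °C, 29.8, 33 and 31.7 CPM at 10 °C, and 22.9, 23.5 and 21.9 CPM at 22 °C. The libraries at 0 and 4 °C all lay below the controls and those at 10 °C all above them. FLM fell at 0 °C, with a log2 fold change of -0.48 ± 0.064 (adjusted p = 2.21e-05), and at 4 °C, with -0.40 ± 0.062 (adjusted p = 7.79e-05), and rose at 10 °C by 0.47 ± 0.061 (adjusted p = 2.16e-05). Its levels at 0 and 4 °C overlapped and were not told apart (-0.07 ± 0.064, adjusted p = 0.367; -0.35, adjusted p = 0.000399, with total counts alone). Both lay below 10 °C, by -0.94 ± 0.063 for 0 over 10 °C (adjusted p = 3.38e-08) and -0.87 ± 0.062 for 4 over 10 °C (adjusted p = 1.17e-07).

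MAF2, known as a repressor that keeps short cold spells from acting as vernalization, was higher at 10 °C. It had 39.5, 36.7 and 38.5 CPM at 10 °C, against 26.4, 25.7 and 29.1 CPM at 22 °C, a log2 fold change of 0.50 ± 0.073 (adjusted p = 6.72e-05). Libraries at 0 °C had 27.3, 29.5 and 26.9 CPM and those at 4 °C 27.5, 29.9 and 33.7 CPM, and both overlapped the controls. The log2 fold changes were 0.05 ± 0.075 at 0 °C (adjusted p = 0.601) and 0.16 ± 0.074 at 4 °C (adjusted p = 0.0639; 0.046 with DESeq2 size factors, 0.0147 without the first library at 4 °C and 0.0284 without the third at 22 °C). Both were below 10 °C, by -0.45 ± 0.074 for 0 over 10 °C (adjusted p = 0.000144) and -0.33 ± 0.073 for 4 over 10 °C (adjusted p = 0.00176). When libraries were scaled by total counts alone, which moved the median of all genes at 0 °C by -0.41, MAF2 at 0 °C was -0.37 (adjusted p = 0.000399).

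The last members of the array had low counts. The counts of MAF4 were 7, 14 and 15 at 0 °C and 35, 15 and 19 at 4 °C, then 54, 50 and 29 at 10 °C, with 31, 49 and 42 at 22 °C. In CPM this was 0.493 ± 0.17 at 0 °C and 1.18 ± 0.184 at 22 °C (SD, n = 3 each), with no overlap, a fall with a log2 fold change of -1.25 ± 0.34 (adjusted p = 0.00526). At 4 °C the value was -0.74 ± 0.32 (adjusted p = 0.0527), with adjusted p of 0.0247 under total counts alone and 0.0193 without the first library at 4 °C, and at 10 °C -0.03 ± 0.3 (adjusted p = 0.928). MAF5 lay between 0.793 and 1.74 CPM in all 12 libraries with overlapping groups, and its counts were all assigned to a partial transcript model, AT5G65080.1.

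SVP, the partner of FLC and FLM on DNA, was highest at 0 °C, less high at 4 °C and slightly below the control at 10 °C. Its libraries had 264, 274 and 264 CPM at 0 °C, 149, 154 and 153 CPM at 4 °C, 97.8, 92.7 and 96.9 CPM at 10 °C, and 108, 110 and 118 CPM at 22 °C. None of the 4 groups overlapped. The log2 fold change over 22 °C was 1.26 ± 0.038 at 0 °C (adjusted p = 1.07e-11), 0.45 ± 0.037 at 4 °C (adjusted p = 2.69e-07) and -0.22 ± 0.038 at 10 °C (adjusted p = 0.000205). The fall at 10 °C was not called with total counts alone (-0.07, adjusted p = 0.0783).

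FT, the mobile flowering signal, was raised at 10 °C and stayed low in the harsher cold. It had 12.4, 13.8 and 15 CPM at 10 °C, against 1.28, 1.35 and 1.28 CPM at 22 °C, a 10.5-fold difference with a log2 fold change of 3.39 ± 0.14 (adjusted p = 3.08e-10). At 4 °C it had 2.35, 1.77 and 2.29 CPM, above every control, with a log2 fold change of 0.71 ± 0.14 (adjusted p = 0.000671). At 0 °C the libraries had 1.36, 1.19 and 1.53 CPM and overlapped the controls (0.06 ± 0.16, adjusted p = 0.771). Between the cold temperatures FT was lower at 0 °C than at 10 °C by a log2 fold change of -3.33 ± 0.14 (adjusted p = 3.62e-10), and lower at 4 °C than at 10 °C by -2.68 ± 0.13 (adjusted p = 3.12e-09). The 3 markers of phloem companion cells, where FT is transcribed, summed to 289 to 312 CPM at 10 °C, against 276 to 313 CPM at 22 °C. Within that sum AHA3 was higher at 10 °C (0.42 ± 0.14, adjusted p = 0.0177), SUC2 lower (-0.21 ± 0.033, adjusted p = 9.55e-05) and APL not called (-0.06 ± 0.059, adjusted p = 0.389).

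TSF, the close relative of FT, had low counts at every temperature. Its counts were 4, 6 and 6 at 0 °C and 23, 23 and 27 at 4 °C, then 24, 18 and 21 at 10 °C, with 0, 3 and 6 at 22 °C. Every library at 4 and 10 °C was above every control, and TSF rose with log2 fold changes of 3.08 ± 0.55 at 4 °C (adjusted p = 0.000246) and 2.60 ± 0.55 at 10 °C (adjusted p = 0.00126). The value at 0 °C was 1.29 ± 0.64 (adjusted p = 0.0887), and without the third library at 22 °C it was 2.29 and called (adjusted p = 0.0123). Levels at 4 and 10 °C were not told apart (0.48 ± 0.43, adjusted p = 0.356). TSF passed the filter on low counts only through libraries at 4 and 10 °C, so its calls are not independent of the filter.

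SOC1, the activator that FT and the repressors act on, rose at 0 and 4 °C and fell at 10 °C. Its libraries had 308, 318 and 300 CPM at 0 °C, 181, 167 and 176 CPM at 4 °C, 45.1, 50.6 and 49.1 CPM at 10 °C, and 76.8, 71.5 and 76 CPM at 22 °C. The groups did not overlap, with the highest level at 0 °C and the lowest at 10 °C, where FT was highest. The log2 fold change over 22 °C was 2.05 ± 0.049 at 0 °C (adjusted p = 1.25e-12), 1.22 ± 0.048 at 4 °C (adjusted p = 1.73e-10) and -0.63 ± 0.049 at 10 °C (adjusted p = 1.89e-07). SOC1 and SVP, an activator and a repressor, had the same order of temperatures, 0, 4, 22 and 10 °C from high to low.

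**Figure D2:**
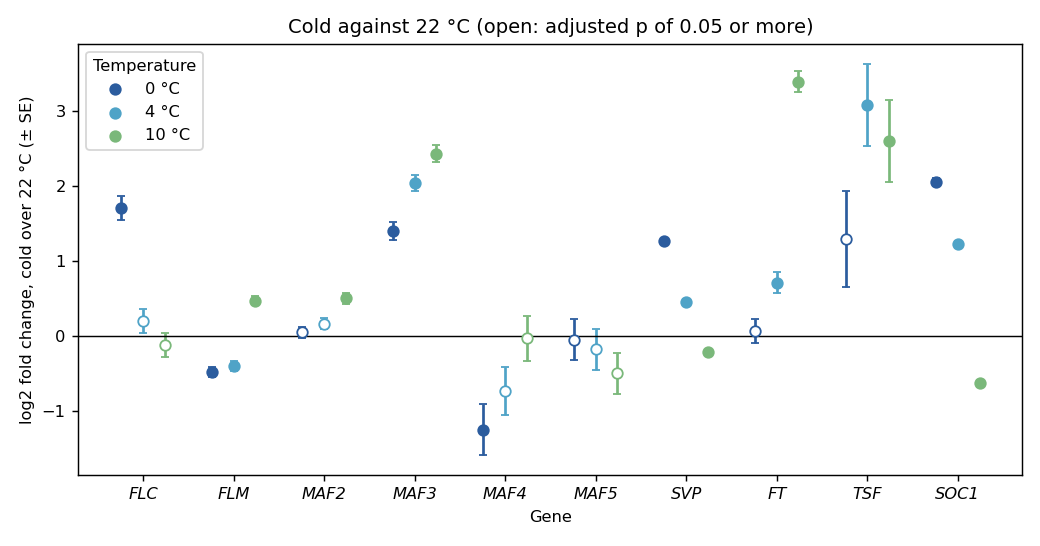
Log2 fold change of cold over 22 °C (y axis) with its SE for each gene (x axis) at 0, 4 and 10 °C, from edgeR with 3 libraries per temperature. Filled points had an adjusted p under 0.05 and open points did not. FT reached 3.39 at 10 °C, where SOC1 was at -0.63, and MAF3 was above 1 at all 3 cold temperatures.

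Between cold temperatures the share of the 10 genes that was called was near that of all genes or somewhat above it. For 0 against 10 °C, 3 of the 10 were higher at 0 °C and 6 lower, beside 33.9% and 36.6% of all genes (70.6% in all), MAF5 being the exception. One of these calls, the lower TSF at 0 °C (-1.31 ± 0.51, adjusted p = 0.0365), ended when any 1 library at 0 or 10 °C was left out, with adjusted p between 0.0539 and 0.111. For 4 against 10 °C, SVP and SOC1 were higher at 4 °C and FLM, MAF2, MAF3 and FT lower, 6 in all, beside 29.7% of all genes higher and 30.3% lower (59.9% in all). For 0 against 4 °C, FLC, SVP and SOC1 were higher at 0 °C and MAF3, FT and TSF lower, again 6, beside 29.2% higher and 28.8% lower (57.9% in all).

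Per kilobase of transcript, the scale on which genes can be set against each other, SVP and SOC1 were the abundant members. At 22 °C the deposited CPM per kilobase was 59.3 ± 2.2 for SVP and 49.6 ± 1.7 for SOC1 (SD, n = 3). MAF2 with 24.1 ± 1.2 and FLM with 22.2 ± 0.84 followed, and the difference between MAF2 and FLM was within the sum of their SDs. MAF5 (3.73 ± 0.92), MAF3 (2.74 ± 0.37), FLC (1.72 ± 0.18), FT (1.45 ± 0.056), MAF4 (1.13 ± 0.17) and TSF (0.102 ± 0.11) were low, and MAF5 and MAF3 again lay within the sum of their SDs. The value of MAF5 divides by its partial model of 354 bases, while its other models have 790 and 1130 bases and would give a lower one, so its place in this order is uncertain. At 0 °C SOC1 (152 ± 3) stood above SVP (106 ± 0.64). At 10 °C FT, at 17.2 ± 1.7, and MAF3, at 16.5 ± 0.83, were within the sum of their SDs.

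The shares of the FLC transcripts at 0 and 4 °C differed from those at 22 °C. AT5G10140.2 had 70.17, 92.13 and 105.08 estimated counts at 0 °C and 0 in every library at 22 °C, and AT5G10140.3 had 31.99, 35.63 and 30.03 at 0 °C and again 0 at 22 °C. At 4 °C AT5G10140.2 had 44.78, 11.25 and 14.06 counts and AT5G10140.3 had 0, 8.33 and 13.87. Both transcripts were thus assigned counts at 0 and 4 °C, with wide spread at 4 °C, and listed at 0 in all 6 libraries at 10 and 22 °C. AT5G10140.4 had 5.82 counts in 1 library at 0 °C and 0 in all others. A count of 0 there allows, at 3 counts over a group, up to 1.5% of the 200 FLC counts at 10 °C and up to 1.55% of the 194 counts at 22 °C. Estimated counts come from a model, so these limits cover counting error only.

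**Figure D3:**
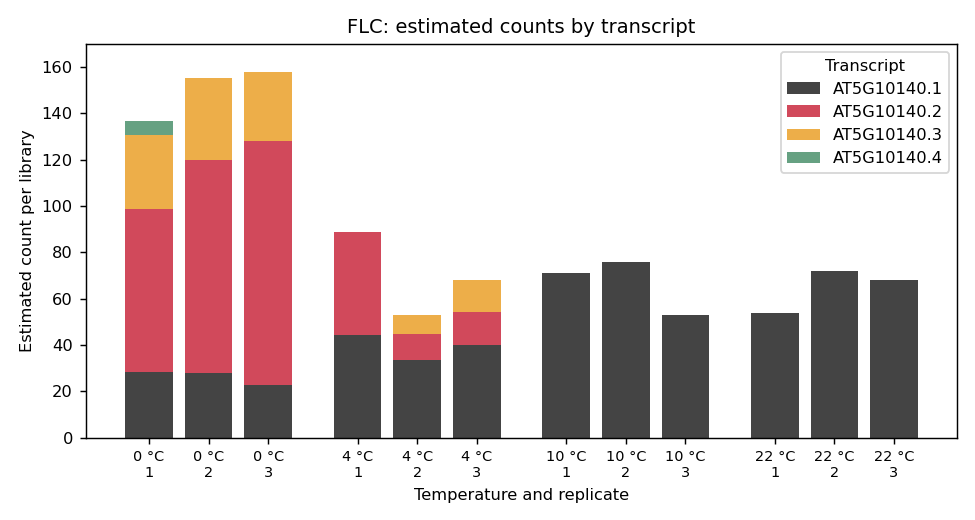
Estimated counts of the FLC transcripts (stacked bars, y axis, not scaled for depth) in each library, ordered by temperature and replicate (x axis). AT5G10140.1 made up all counts at 10 and 22 °C, while AT5G10140.2 averaged 89.1 and AT5G10140.3 averaged 32.6 counts at 0 °C.

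As shares of the locus, AT5G10140.2 took 59.1 ± 7.6% and AT5G10140.3 took 21.8 ± 2.4% at 0 °C (SD, n = 3), and AT5G10140.1, the standard transcript, kept 17.7 ± 3.2%. At 4 °C the shares were 30.7 ± 17%, 12 ± 11% and 57.2 ± 6.8% for AT5G10140.2, AT5G10140.3 and AT5G10140.1. The change in transcript usage against 22 °C was called at 0 °C (adjusted p = 2.63e-06, edgeR's test of transcript usage) and at 4 °C (adjusted p = 4.53e-05), and at 10 °C the adjusted p was 1. Of the 4532 genes with at least 2 transcripts past the filter, 27.7% were called at 0 °C, 25.4% at 4 °C and 13.1% at 10 °C. FLC usage was called at 4 °C although its total did not pass the test there. AT5G10140.2 and AT5G10140.3 had no counts at 10 and 22 °C. They passed the filter only through libraries at 0 and 4 °C, so these usage calls are not independent of the filter.

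The direction of FLC depends on which transcripts are summed. AT5G10140.1 alone had 1.11 ± 0.158 CPM at 0 °C and 1.89 ± 0.213 CPM at 22 °C (SD, n = 3 each), a fall with a log2 fold change of -0.77 ± 0.19 (adjusted p = 0.00259), where the sum of all transcripts rose by 1.71. At 4 °C AT5G10140.1 had 1.22 ± 0.0821 CPM, with a log2 fold change of -0.63 ± 0.18 (adjusted p = 0.00793), and at 10 °C it had 1.74 ± 0.272 CPM (-0.12 ± 0.18, adjusted p = 0.587). This count by 1 transcript was added after the shares had been seen. It rested on 29, 28 and 23 rounded counts at 0 °C and on 54, 72 and 68 at 22 °C. The split of reads among FLC transcripts was estimated by a model, and these p-values do not cover error in that split. AT5G10140.1 at 0 and 4 °C was not told apart (-0.15 ± 0.19, adjusted p = 0.55).

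The bases that mark AT5G10140.2 also lie under an RNA of the other strand. RefSeq places the antisense gene AT5G01675, the locus of COOLAIR, on the plus strand at chr5:3173371-3179600, and FLC shares 6067 bases with it, the only 1 of the 10 genes to overlap another. The 66 bases found in AT5G10140.2 and not in AT5G10140.1 (chr5:3173826-3173891) lie wholly within exons of 2 of its 6 antisense models, AT5G01675.1 and AT5G01675.2. The 72 bases of the exon of AT5G10140.3 lie in the exons of none of the 6. None of the sources used here states whether counting used the strand. All 4 FLC transcripts share exonic bases with each of the 6 antisense models elsewhere, between 235 and 444 bases for AT5G10140.1 and between 120 and 400 for AT5G10140.3. FLC and antisense reads therefore cannot be told apart over these bases, which touches the FLC total and every transcript, and AT5G01675 itself was not analysed here.

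**Figure D4:**
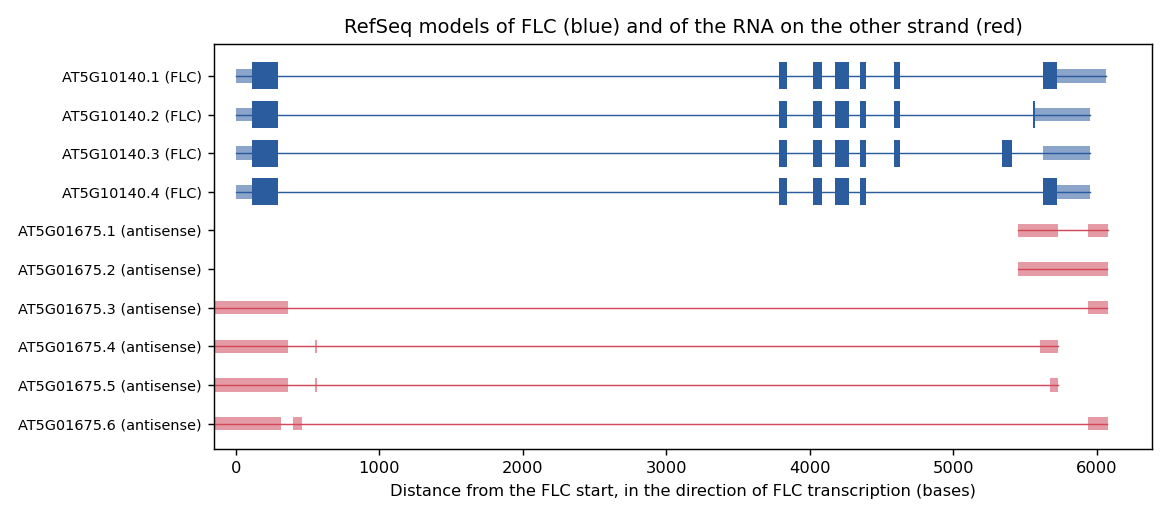
RefSeq exon models of FLC (blue, thick for coding parts) and of the antisense gene AT5G01675 (red), by distance in bases from the FLC start in the direction of FLC transcription (x axis). AT5G10140.1, AT5G10140.2 and AT5G10140.3 differ in their last coding stretch, AT5G10140.4 skips an exon that the others share, and 2 of the 6 antisense models cover the stretch that only AT5G10140.2 has.

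FLM kept its 2 main transcripts at every temperature. AT1G77080.4, with the FLM-beta exon, held 76.5 ± 4.1% of FLM in the 0 °C libraries, 82.9 ± 7.3% in those at 4 °C, 81.3 ± 1.6% in those at 10 °C and 74.7 ± 6% in the controls. AT1G77080.2, with the FLM-delta exon, held 20.4 ± 3.5%, 13.5 ± 5.8%, 16.9 ± 1.7% and 24 ± 6.1% at the same temperatures. At 0 °C both overlapped the controls. AT1G77080.2 did not overlap them at 4 °C, with 6.99 to 18.2% against 20.4 to 31.1% at 22 °C, or at 10 °C, with 15.7 to 18.8%. AT1G77080.4 did not overlap them at 10 °C, with 79.5 to 82.5% against 67.7 to 78.3% at 22 °C, and did at 4 °C. Neither passed its own test at 4 °C (adjusted p = 0.919 for AT1G77080.4 and 0.256 for AT1G77080.2) or at 10 °C (adjusted p = 1 and 0.944). FLM as a gene was called for usage at 4 °C (adjusted p = 0.00469), where the rare AT1G77080.5 reached 2.39 ± 1.2%, against 0.133 ± 0.23% at 22 °C (adjusted p = 0.0203). That transcript had only 21.4, 12 and 6.25 estimated counts at 4 °C and 0, 0 and 2.8 at 22 °C. It passed the filter on low counts through cold libraries, so its call is not independent of its higher counts there. At 0 °C (adjusted p = 0.196) and 10 °C (adjusted p = 0.28) FLM usage was not called, and at 0 °C it was called without the third library at 22 °C (adjusted p = 0.0374).

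**Figure D5:**
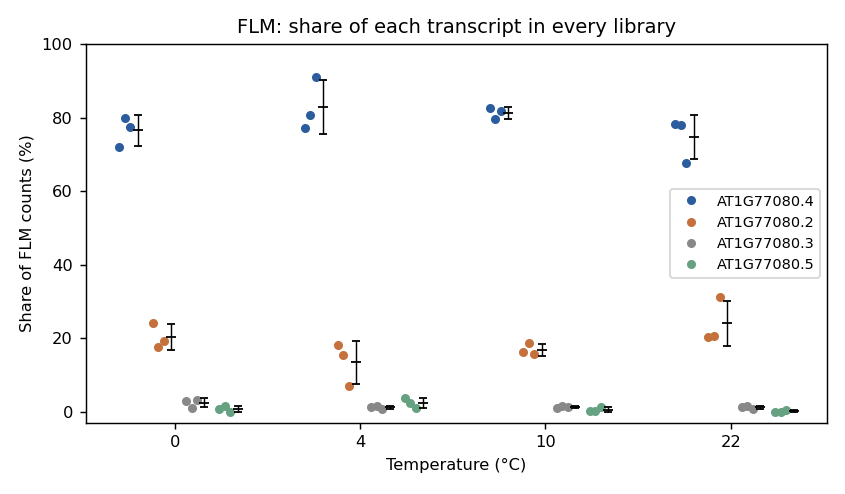
Share of FLM counts (%, y axis) held by each transcript in every library at 0, 4, 10 and 22 °C (x axis), with the mean ± SD of 3 libraries beside the points. AT1G77080.4 held 67.7 to 91.1% and AT1G77080.2 held 6.99 to 31.1% of the counts.

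MAF2 and MAF3 each had 1 main transcript and showed no called change in usage. AT5G65050.3 held 90.8 ± 3.3% of MAF2 at 0 °C and 96.3 ± 1.6% at 22 °C (adjusted p = 0.135 for the gene), and AT5G65060.1 held 98.7 ± 1.1% of MAF3 at 0 °C and 94 ± 7.3% at 22 °C (adjusted p = 0.159). SVP had AT2G22540.1 at 99.8% or more of its counts at each temperature. FT, TSF and SOC1 had a single transcript in the table. MAF4 and MAF5 had fewer than 2 transcripts past the filter, and their usage was not tested.

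Closely related members share long runs of sequence, and how the authors' counting split reads between them was not tested. The coding sequences of MAF2 and MAF3 were 93.6% identical over 591 aligned bases, with a longest shared run of 59 bases, and those of FLM and MAF3 were 89.7% identical with a run of 61. Reads were 250 bases per end. MAF4 and MAF5 were 85.4% identical and FT and TSF 82.2%. The 4 genes MAF2 to MAF5 span 20366 bases of chromosome 5.

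The promoters were searched for the core of the cold-response element, CCGAC, which CBF factors bind. Within 250 bases before the annotated start, on either strand, it was present in 5 of the 10 genes, FLC, FLM, MAF2, MAF3 and FT, and in 12% of 27443 promoters of the same length. FLM, MAF2 and MAF3 are close relatives, so the 5 are not independent. The stretches around it on the gene's strand are shown with CCGAC in capitals, at chr5:3179476-3179510 for FLC (minus strand), chr1:28955429-28955463 for FLM, chr5:25982097-25982131 for MAF2, chr5:25987219-25987253 for MAF3 and chr1:24331350-24331372 for FT (plus strand, ending at the base before the start), all in TAIR10.1.
FLC promoter: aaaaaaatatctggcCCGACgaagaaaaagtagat
FLM promoter: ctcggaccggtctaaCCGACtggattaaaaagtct
MAF2 promoter: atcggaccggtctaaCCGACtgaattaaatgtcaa
MAF3 promoter: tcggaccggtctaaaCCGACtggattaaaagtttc
FT promoter: gtggttatgatttcaCCGACccg

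FLM, MAF2 and MAF3 have nearly the same letters around CCGAC, while their levels differed in the cold: MAF3 rose at all 3 temperatures, FLM fell at 0 and 4 °C, and MAF2 was called at 10 °C. The evening element AAAATATCT, bound by clock factors, was found in FLC and MAF5, 2 of the 10, and in 2.36% of promoters. In FLC it stands just before CCGAC without overlapping it. The G-box CACGTG was found in FLC only, 1 of the 10, beside 6.49% of promoters, and the CArG box, the site of MADS factors, in 0 of the 10 and 2.52% of promoters. A match is a run of letters, and none of these files holds binding data.

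Regulators of FLC moved in both directions. In the vernalization and Polycomb list of 11 genes, 5 were higher and 2 lower at 0 °C, 7 and 2 at 4 °C, and 5 and 2 at 10 °C, with list medians of 0.55, 0.61 and 0.15. Over all genes 35.5% were higher and 38.8% lower at 0 °C, 36.3% and 37.6% at 4 °C, and 32.4% and 32.3% at 10 °C. VIN3, the cold-induced PHD protein that starts FLC silencing, had 8 ± 0.537 CPM at 0 °C and 0.0832 ± 0.0783 CPM at 22 °C (SD, n = 3 each), a rise of 6.46 ± 0.48 on the log2 scale (adjusted p = 8.16e-08). It had 1.42 ± 0.317 CPM at 4 °C (3.96 ± 0.51, adjusted p = 1.64e-05) and 0.0512 ± 0.0444 CPM at 10 °C (-0.69 ± 0.83, adjusted p = 0.487). VIN3 passed the filter on low counts only through libraries at 0 and 4 °C, so its calls are not independent of the filter. At these temperatures AT5G10140.2 had counts in every library and AT5G10140.3 in all but 1 library at 4 °C. A link between VIN3 and these transcripts was not tested, and 35.5% and 36.3% of all genes were also higher at 0 and 4 °C. VRN5, a PHD partner of VIN3, was higher at 0, 4 and 10 °C by 1.02, 0.90 and 1.13, and the Polycomb methyltransferase CLF by 0.95, 1.12 and 0.89.

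Genes of the autonomous pathway, which lower FLC, were mostly higher in the cold. Of 7 tested, 5 were higher and 1 lower at 0 °C, 6 and 0 at 4 °C, and 5 and 1 at 10 °C (medians 0.65, 0.72 and 0.33). FY, an RNA 3' end processing factor, was higher by 1.09 ± 0.2, 1.27 ± 0.2 and 1.37 ± 0.19 at 0, 4 and 10 °C (adjusted p = 0.000292, 7.5e-05 and 4.89e-05). FPA, an RNA-binding protein of the same pathway, was higher by 1.02 ± 0.081, 0.72 ± 0.081 and 0.29 ± 0.081. Of 14 tested activators of FLC, 6 were higher and 4 lower at 0 °C, 5 and 4 at 4 °C, and 5 and 5 at 10 °C (medians 0.21, 0.07 and -0.08), and PIE1 was not tested. Both lists stand beside 35.5% of all genes higher and 38.8% lower at 0 °C, 36.3% and 37.6% at 4 °C, and 32.4% and 32.3% at 10 °C. The counts of the activators do not set them apart. SUF4, a zinc-finger protein of the FRI complex, was higher by 1.15 ± 0.075, 1.05 ± 0.074 and 0.71 ± 0.074, while FES1 of the same complex was lower, at -0.72 ± 0.13, -1.07 ± 0.13 and -0.64 ± 0.12.

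The photoperiod genes upstream of FT were mostly higher in the cold, activators such as CO and GI and repressors such as CDF5 alike. The list median was highest at 0 °C, where FT was not called, but with both kinds in the list it gives no direction for FT. All 9 were called higher at 0 and 4 °C and 7 of the 9 at 10 °C, with list medians of 2.48, 0.98 and 0.51. Over all genes 35.5%, 36.3% and 32.4% were called higher at 0, 4 and 10 °C. CO, the activator of FT, had 4.27 ± 0.252 CPM at 0 °C and 2.12 ± 0.0312 CPM at 4 °C, against 0.339 ± 0.158 CPM at 22 °C (3.61 ± 0.32, adjusted p = 4.92e-07, and 2.60 ± 0.32, adjusted p = 1.11e-05). At 10 °C, the temperature of highest FT, CO had 0.551 ± 0.247 CPM and was not called (0.67 ± 0.35, adjusted p = 0.11). GI, a clock protein that promotes CO, was higher by 2.94 ± 0.099, 2.26 ± 0.097 and 0.44 ± 0.094 at 0, 4 and 10 °C. CDF5, a DOF-type repressor of CO, was higher by 4.11 ± 0.084, 2.11 ± 0.083 and 0.56 ± 0.088. These genes cycle over the day, and without the hour of harvest a shift in phase and a change in level cannot be told apart.

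Repressors of FT in the AP2-like and RAV families were also mostly higher. Of 7, 5 were higher and 2 lower at 0 °C, 4 and 2 at 4 °C, and 5 and 1 at 10 °C (medians 1.13, 0.51 and 0.35). Over all genes 35.5% were higher and 38.8% lower at 0 °C, 36.3% and 37.6% at 4 °C, and 32.4% and 32.3% at 10 °C. TOE1, an AP2-like repressor, had log2 fold changes of 2.42 ± 0.037, 1.98 ± 0.036 and 1.59 ± 0.036 at 0, 4 and 10 °C, and SMZ of the same family 1.49 ± 0.078, 1.71 ± 0.077 and 0.97 ± 0.077. TEM2, a RAV repressor, was lower, at -0.98, -1.28 and -0.91. FT was thus highest at 10 °C, where TOE1, SMZ, MAF3, MAF2, FLM and TSF were above the control too and SVP, SOC1 and TEM2 below it.

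Genes with the most similar profiles were ranked by Pearson's r of log2 CPM over the 12 libraries, among 21283 other genes, as a description. The 3 closest to FLC were ZF14 (AT1G58340, r = 0.9863), SAP7 (AT4G12040) and WRKY25 (AT2G30250). The 3 closest to FT were AT2G39670 (r = 0.9919), AT3G23940 and AT1G53542. For SVP they were BCB (AT5G20230, r = 0.9980), VPS2.1 and FIP1, and for SOC1 TET8 (AT2G23810, r = 0.9971), RVE1 and PP2A-1. The 12 points fall into 4 groups of 3 and share library and depth, so each r rests on few independent values.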

How the data were processed

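RNA of 12 samples, 3 at each of 4 temperatures, was sequenced as paired 250-base reads, and groups and replicate numbers came from the labels. The authors deposited estimated counts per transcript and a CPM table, with values that need not be whole, and recomputing CPM from the counts gave the deposited CPM to within 5.46e-11. Per the submitters' processing notes, the build was TAIR10 and the tools included HISAT2 2.2.0, kallisto 0.42.4 and edgeR, with no role given. The tables each had 6 columns that matched no sample and were not used. For each locus the estimated counts of its annotated transcripts were added up and then rounded; assembled transcripts (9.79 to 12.2% of counts) were left out. edgeR 4.0.16 (R 4.3.3) with TMM, filterByExpr and the quasi-likelihood test was fitted over all 12 samples, with Benjamini-Hochberg adjustment over 21293 genes and calls at an adjusted p under 0.05. SE was taken as the size of the log2 fold change over the root of the F statistic. Usage of transcripts was compared with diffSpliceDGE of edgeR. The scripts were tested on simulated data. Deposited CPM per kilobase used RefSeq TAIR10.1 transcript lengths, matched by ID for 23 of 23 transcripts. That build differs in name from the authors', and its coordinates are used for RefSeq models only.

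The 10 genes and all gene lists were chosen with earlier results of these data known. Besides the 10 genes, the text names from each list the 2 tested genes with the largest absolute log2 fold change against 22 °C, plus VIN3, CO, GI, LFY and AP1; FRI, CLF, TEM2, FUL, PIE1, U2AF65B, PRMT5 and the tissue markers were named after their values were seen. DESeq2 1.42.0 and limma 3.58.1 served as alternatives, with other scalings, filters, sample sets and each library left out. Each library pooled 10 plantlets from 1 plate, per the labels, and no source used here says whether a temperature had more than 1 chamber, so p-values cover only the spread between these libraries.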

Additional observations from a re-analysis of the deposited data

How the results depend on the processing

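Counts of called genes stayed within 1.5 times under every alternative run, and so did counts of called members, apart from transcript usage at 0 °C, where 1 member (FLC) was called and 2 without the third library at 22 °C. Members called at 0 °C numbered 5 to 7 across alternatives, at 4 °C 5 to 8 and at 10 °C 6 to 7; a filter at a mean of 1 CPM removes TSF and MAF4. Scaling by total counts shifted the genome-wide median log2 fold change by -0.41, -0.14 and 0.15 at 0, 4 and 10 °C against 22 °C and by -0.57, -0.29 and -0.28 for 0 against 10, 4 against 10 and 0 against 4 °C. The share of calls that were higher was 47.8% at 0 °C, 27.6% with total counts and 35.4% with upper quartile factors, and at 10 °C 50.1%, 61.6% and 48.6%. Replicate numbers did not pair the libraries: deviations of same-numbered libraries correlated at -0.042 to 0.099, and with the replicate number as a block the counts of called members stayed at 6, 6 and 7 against 22 °C and those of all genes were 15686, 15592 and 13565.

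Log2 fold changes turned sign as follows, and the cause was not tested. With total counts they were -0.37 for MAF2 (adjusted p = 0.000399) and -0.35 for FT at 0 °C, 0.037 for FLC and 0.12 for MAF4 at 10 °C, and for MAF5 -0.11 for 0 against 10 °C and -0.15 for 0 against 4 °C. With upper quartile factors they were -0.19 for MAF2 and -0.17 for FT at 0 °C, and with assembled loci added -0.009 for MAF2 at 0 °C. Counting FLC by AT5G10140.1 alone, chosen after seeing the data, gave -0.77 and -0.63 at 0 and 4 °C against 22 °C, -0.66 and -0.51 at 0 and 4 °C against 10 °C, and -0.15 for 0 against 4 °C; here the cause is the transcripts left out. Leaving out single libraries turned only values that were not called: against 22 °C, MAF5 ranged from -0.258 to 0.127 at 0 °C and -0.389 to 0.001 at 4 °C, FT from -0.011 to 0.155 at 0 °C, and at 10 °C MAF4 from -0.162 to 0.162, VIN3 from -1.222 to 0.147 and AGL15 from -0.937 to 1.776, while MAF5 for 0 against 4 °C ranged from -0.089 to 0.34.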

Other observations

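Meristem identity genes, which turn the shoot tip into flowers, were higher in the cold. The 5 floral organ markers summed to between 4.5 and 5.41 CPM at all temperatures. Among them SEP3 was lower at 10 °C (-0.55 ± 0.14, adjusted p = 0.00442, edgeR) and AG lower at 0 °C than at 10 °C (-1.44 ± 0.47, adjusted p = 0.0153). AG had only 11 counts over the 3 libraries at 0 °C and 48 at 10 °C. It passed the filter on low counts through libraries at temperatures other than 0 °C, so its call is not independent of the filter. All 3 tested meristem identity genes were called higher at 0 and 4 °C and 2 of the 3 at 10 °C, with CAL not tested. Over all genes 35.5%, 36.3% and 32.4% were called higher. Counts over 3 libraries were low, with 60 at 0 °C and 8 at 22 °C for AP1 and 52 and 17 for LFY. AP1 and LFY passed the filter on low counts only through cold libraries, so their calls are not independent of the filter. AP1 had 0.827 CPM at 0 °C and 0.0781 CPM at 22 °C on average (log2 fold change 3.34 ± 0.55, adjusted p = 0.000123, edgeR), and it was also higher at 4 °C (2.52 ± 0.56) and 10 °C (2.17 ± 0.57). LFY had 0.717 CPM at 0 °C and 0.165 CPM at 22 °C (2.09 ± 0.42, adjusted p = 0.000646), was higher at 4 °C (1.46 ± 0.43) and was not called at 10 °C (0.44 ± 0.45, adjusted p = 0.414). FUL, a MADS-box gene of the same list, was higher by 2.02, 1.56 and 0.97 at 0, 4 and 10 °C. Of the 3 shoot apex markers, WUS and CLV3 were at 0 in every library at 0 °C, had only 3 and 1 counts over the 3 libraries at 22 °C, and were not tested. The summed level of the 3 was 2.47 to 2.58 CPM at 0 °C, against 2.73 to 3.47 CPM at 22 °C. Among 6 other flowering MADS genes tested, 2, 3 and 1 were higher at 0, 4 and 10 °C and 0 lower. Over all genes 35.5%, 36.3% and 32.4% were higher and 38.8%, 37.6% and 32.3% lower. AGL18 was higher at 0 °C (1.95 ± 0.1) and 4 °C (0.66 ± 0.1), and AGL15 at 4 °C (2.25 ± 0.85, adjusted p = 0.0309).

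The SPL factors of the ageing pathway were called in both directions. Of 8, 2 were higher and 4 lower at 0 °C, 3 and 3 at 4 °C, and 1 and 3 at 10 °C (medians -0.59, -0.69 and -0.32). Over all genes 35.5% were higher and 38.8% lower at 0 °C, 36.3% and 37.6% at 4 °C, and 32.4% and 32.3% at 10 °C. These shares are the background for every list in this paragraph, and calls in both directions do not set the SPL factors apart. SPL3, a target of miR156, had 2.04 CPM at 4 °C and 1.34 CPM at 10 °C, against 8.93 CPM at 22 °C (-2.13 ± 0.17 and -2.74 ± 0.18), while at 0 °C it had 7.36 CPM and was not called (-0.28 ± 0.16, adjusted p = 0.126). SPL15 was lower at 0 °C (-2.50 ± 0.68, adjusted p = 0.0055). Among 8 relatives, partners and transporters of FT, 3 were higher and 2 lower at 0 °C, 2 and 0 at 4 °C, and 2 and 1 at 10 °C. BFT, an FT relative known as a repressor of flowering, was higher at 10 °C, as FT was, with 3.43 CPM at 10 °C and 0.414 CPM at 22 °C (3.05 ± 0.39, adjusted p = 2.11e-05). FDP, a relative of the FT partner FD, was lower at 0 °C (-1.08 ± 0.32, adjusted p = 0.00912). Of 7 genes for splicing and cold regulation of the clade, 5 were higher and 1 lower at 0 °C, and 6 and 1 at 4 and at 10 °C. The RNA-binding protein genes GRP7 and GRP8 were higher by 3.42 ± 0.055 and 1.99 ± 0.052 at 0 °C. PRMT5, an arginine methyltransferase, was higher by 0.56, 1.12 and 1.47 at 0, 4 and 10 °C, and U2AF65B, a splicing factor subunit, was lower in all 3 comparisons (-0.39, -1.31 and -0.64).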
